A study of Macaca fascicularis with 16 samples.

Results

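The metallothionein genes MT1X, MT2A and MT1E were followed across 4 treatment groups in mammary tissue of cynomolgus macaques (Macaca fascicularis). Every probe set whose platform annotation gave 1 of these symbols alone was taken, which gave 6 probe sets for 3 genes, of 52865 probe sets and 14132 named genes on the array. MT1X had 4 probe sets, and MT2A and MT1E had 1 each. All 6 exceeded the low-signal filter on every array and were tested. No metallothionein probe set passed the threshold in any of the 6 comparisons when all 16 arrays were used, although some did when 1 array was left out.

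Metallothioneins are small, cysteine-rich proteins that bind zinc and copper and buffer cadmium and other toxic metals. Their genes are switched on by the zinc-sensing transcription factor MTF1, and glucocorticoids and oxidative stress are also known inducers. In the breast, metallothionein protein has been described mainly in myoepithelial cells and in some tumours. MT1X, MT1E and MT2A lie in 1 cluster of closely related genes, and MT2A is among the widely expressed members.

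The animals were females, described as postmenopausal, whose ovaries had been removed, and this applied to all 4 groups. Each group held 4 animals with 1 array each. Controls received no treatment. The second group received conjugated equine estrogens (CEE, a mixture of estrogens from the urine of pregnant mares) at 0.042 mg/kg. The CEE+MPA group received the same 0.042 mg/kg with medroxyprogesterone acetate (MPA, a synthetic progestin that also binds the glucocorticoid receptor) at 0.167 mg/kg. The last group received tibolone, a synthetic steroid that is converted to estrogenic and progestogenic metabolites, at 0.2 mg/kg, and is called OD14-HIGH in the sample titles. The labels used here give no animal ages and no length of treatment. Removal of the ovaries leaves an animal with little estrogen or progesterone of ovarian origin.

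Signal was a linear intensity that the authors had scaled to the same trimmed mean on every array. Between 48.6% and 51.8% of probe sets lay above the table median of 60.2 on each array. Of 14 markers of luminal epithelium, 11 were tested. Their mean log2 signal per array, after centring every gene over the arrays, lay between -0.39 and 0.48. The same mean for skeletal muscle markers, a tissue foreign to the gland, exceeded 1 in 4 animals. These were control replicate 1 (2.92), tibolone replicates 2 (2.71) and 3 (1.76), and CEE+MPA replicate 1 (1.56). The bacterial spike-in control dap also separated the arrays. At the largest gap in its signal, 12 arrays lay low and 4 high, and at the second gap, which was nearly as wide, 6 lay low and 10 high. All 4 tibolone arrays were on the high side of the second gap. Results for the metallothioneins are given within these sets below.

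The platform identifies the 4 MT1X probe sets as MmugDNA.19860.1.S1_s_at (called MT1X-A here), MmugDNA.2973.1.S1_at (MT1X-B), MmugDNA.41838.1.S1_at (MT1X-C) and MmugDNA.41838.1.S1_x_at (MT1X-D). The MT2A probe set is MmugDNA.5794.1.S1_at and the MT1E probe set is MmunewRS.52.1.S1_s_at. In the manufacturer's naming, the endings _s_at and _x_at mark probes that can match several related transcripts, so MT1X-A, MT1X-D and the MT1E probe set may also read other metallothionein genes. How far they do was not tested. The probes were designed for rhesus macaque, and in the RefSeq gene table of the cynomolgus assembly T2T-MFA8v1.1 none of the 3 symbols is used. That table places 21 entries between MT3 and NUP93, where this cluster lies, and all 16 protein-coding ones carry provisional names.

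MT2A encodes a metallothionein that is present in most cell types. Its signal was 8248, 5039, 8257 and 13940 in the 4 controls and 16227, 8787, 15260 and 18130 with CEE. With CEE+MPA it was 21162, 19815, 21854 and 8874, and with tibolone 7241, 6265, 2256 and 17775. In 3 of 4 CEE+MPA animals MT2A was above every other animal in the study, while the fourth lay within the control range. With tibolone 3 animals lay under at least 3 of the 4 controls and the fourth was above all controls, so every pair of groups overlapped.

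MT1E encodes a further zinc-binding member of the family. Its signal was 11214, 9181, 14404 and 13618 in controls and 16100, 15060, 16133 and 15618 with CEE. It was 15173, 16724, 18223 and 17560 with CEE+MPA, and 15464, 10320, 7581 and 16566 with tibolone. All CEE animals and all CEE+MPA animals were above all controls, and the tibolone animals ranged from below the lowest control to within the CEE+MPA range. The brightest probe set on any array reached 39563, above every MT1E and MT2A signal.

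The 3 brighter MT1X probe sets shared one pattern. MT1X-A had signals of 1648, 1551, 1429 and 3082 in controls and 2295, 1580, 2141 and 3263 with CEE. With CEE+MPA they were 2946, 4230, 3083 and 2013, and with tibolone 1905, 2723, 1572 and 2097. The highest array was CEE+MPA replicate 2, control replicate 4 stood well above the other controls, and all groups overlapped.

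MT1X-C had signals of 1006, 417, 564 and 2528 in controls and 1306, 723, 1114 and 2671 with CEE. They were 2495, 4186, 1958 and 1158 with CEE+MPA, and 1138, 1726, 795 and 1625 with tibolone. MT1X-D, which carries the same base identifier, ran from 370 in control replicate 2 to 4066 in CEE+MPA replicate 2. In both probe sets the 3 lower controls were under every CEE+MPA animal, and control replicate 4 was above 3 of those 4 animals.

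MT1X-B differed from the others in its narrow range. Its signals were 445, 370, 426 and 371 in controls, 429, 391, 398 and 539 with CEE, 427, 584, 627 and 406 with CEE+MPA and 462, 331, 370 and 428 with tibolone. Only CEE+MPA replicates 2 and 3 and CEE replicate 4 exceeded 500, and control replicate 4, high in the other MT1X probe sets, was at 371.

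**Figure D1:**
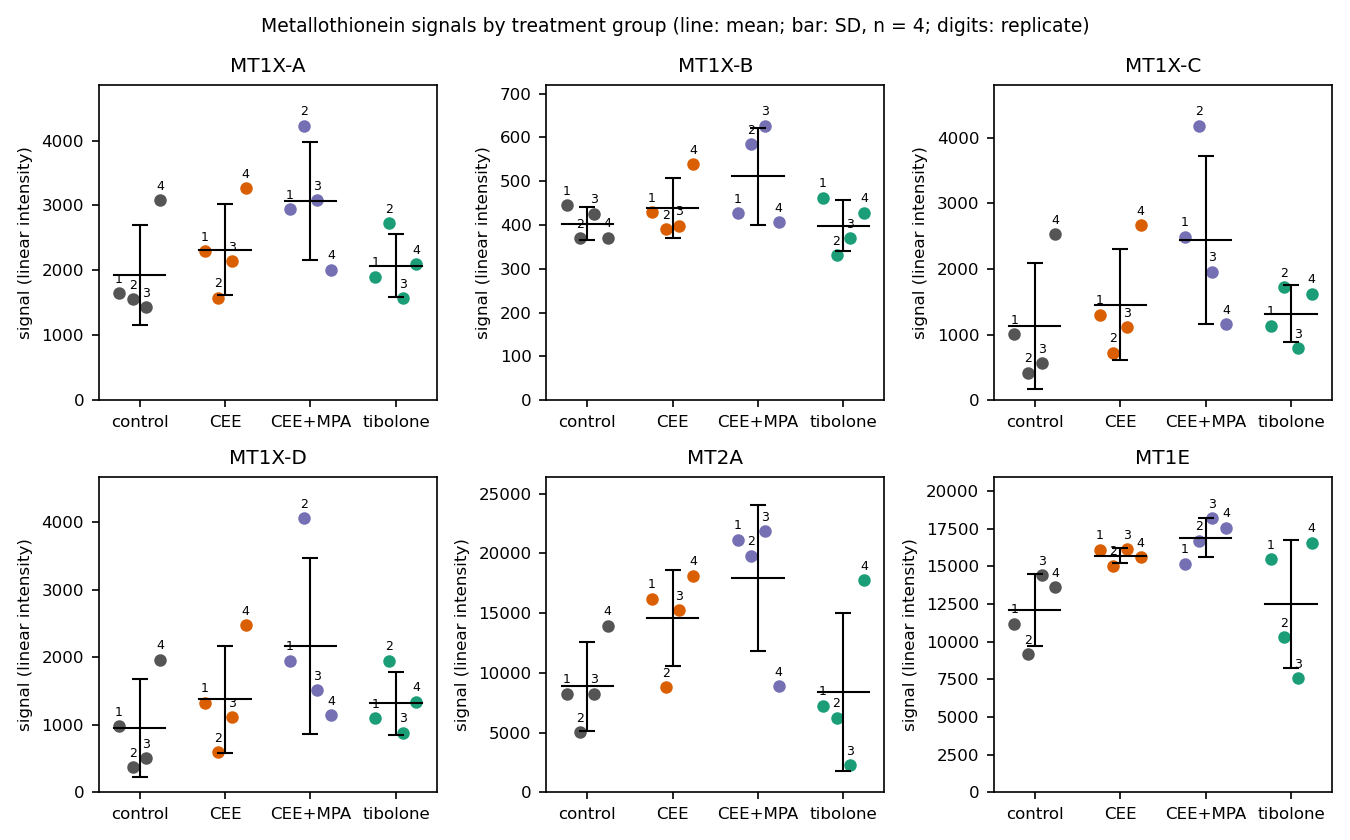
Signal (linear intensity) of each metallothionein probe set in the 4 groups, with a point for each animal, its replicate number, and the group mean and SD as line and bar (n = 4). MT2A is between 19815 and 21854 in 3 CEE+MPA animals and at 8874 in the fourth, and the MT1E signals of CEE and CEE+MPA animals lie above all controls.

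The spread within groups was wide for most of these probe sets. Over the 16 arrays the highest signal was 10.99 times the lowest for MT1X-D, 10.03 times for MT1X-C and 9.69 times for MT2A. The same ratio was 2.96 for MT1X-A, 2.40 for MT1E and 1.89 for MT1X-B. The residual SD within groups on the log2 scale was 0.82 for MT1X-C, 0.81 for MT1X-D and 0.78 for MT2A, against a median of 0.29 over the 28704 probe sets tested. These 3 were at the 97.7th, 97.6th and 97.1st percentiles of that spread. MT1X-A (0.43) was at the 80.4th percentile, MT1E (0.31) at the 56.3rd and MT1X-B (0.22) at the 26.8th.

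The comparison of CEE+MPA with control asks what the combined therapy changes relative to no hormone. Mean MT2A signal was 17926 ± 6094 (SD, n = 4) with CEE+MPA and 8871 ± 3703 in controls. Mean MT1E signal was 16920 ± 1316 against 12104 ± 2375. Group means were also higher with CEE+MPA for MT1X-A (3068 ± 909 against 1928 ± 774), MT1X-B (511 ± 111 against 403 ± 38.3), MT1X-C (2449 ± 1282 against 1129 ± 966) and MT1X-D (2168 ± 1307 against 955 ± 724).

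All 6 estimates were above 0, but none passed in limma. The log2 difference was 1.02 ± 0.49 (SE) for MT2A, with a 95% interval from -0.02 to 2.06 and an adjusted p of 0.217. For MT1E it was 0.50 ± 0.21, with an interval from 0.05 to 0.95 and an adjusted p of 0.161. For MT1X-C it was 1.31 ± 0.52 (0.21 to 2.40; adjusted p 0.135) and for MT1X-D 1.29 ± 0.51 (0.21 to 2.37; adjusted p 0.135).

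MT1X-A differed by 0.69 ± 0.28 (0.10 to 1.28; limma adjusted p 0.146) and MT1X-B by 0.31 ± 0.16 (-0.04 to 0.66; adjusted p 0.266). Of all probe sets tested, 6.34% passed in this comparison, 1258 of them lower and 561 higher. These 1819 fell to 707 without control replicate 1, 348 without control replicate 2 and 1058 without control replicate 3. They fell to 1202, 658 and 552 without CEE+MPA replicates 1, 2 and 3. At an unadjusted p under 0.05 there were 4 of the 6 metallothionein probe sets (MT1X-A, MT1X-C, MT1X-D and MT1E), and 24.1% of all. The median log2 difference was 0.86 over the 6 and -0.01 over all tested, of which 48.4% were above 0. The 6 are not separate estimates, since several of these probe sets correlated with each other across the arrays. MT1E was the only one of the 6 whose groups did not overlap, with CEE+MPA higher, as were 6.65% of all probe sets. The intervals for MT2A, MT1X-C and MT1X-D reach from little or no difference to log2 differences above 2, so the size of any rise is poorly bounded with 4 animals a group.

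**Figure D2:**
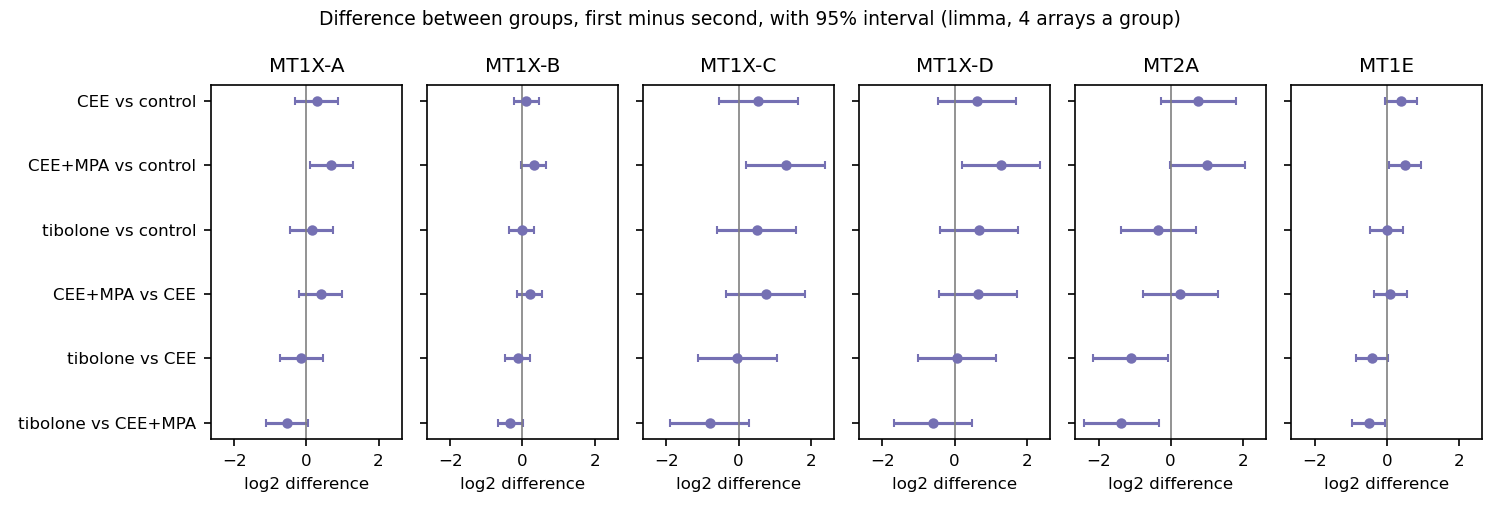
Log2 difference between groups, first minus second, for each metallothionein probe set, with the 95% interval from the limma model of 16 arrays. For CEE+MPA against control all 6 points are right of 0, and for tibolone against CEE+MPA all 6 are left of 0.

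One array decided the calls in this comparison. Without control replicate 4, the control with the highest MT2A, MT1X-A, MT1X-C and MT1X-D signals, 3 of the 6 probe sets passed as higher with CEE+MPA, where 2.42% of all tested did. They were MT1X-A (log2 difference 0.94, limma adjusted p 0.0455), MT1X-C (1.81, adjusted p 0.0330) and MT1X-D (1.73, adjusted p 0.0451). All 3 belong to MT1X and correlated with each other at r of 0.93 to 0.98, so they are not 3 separate results. Leaving out their highest control raises the difference in any case. No other omission of a single control or CEE+MPA array gave a call. Over all 8 omissions the adjusted p ranged from 0.0330 to 0.358 for MT1X-C, from 0.123 to 0.465 for MT2A and from 0.138 to 0.394 for MT1E. Control replicate 4 carries no label that sets it apart from the other controls. Its skeletal muscle mean was -0.69, its myeloid marker mean was 0.58, the highest of the 16 arrays, and the part of either in the metallothionein values was not tested.

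**Figure D3:**
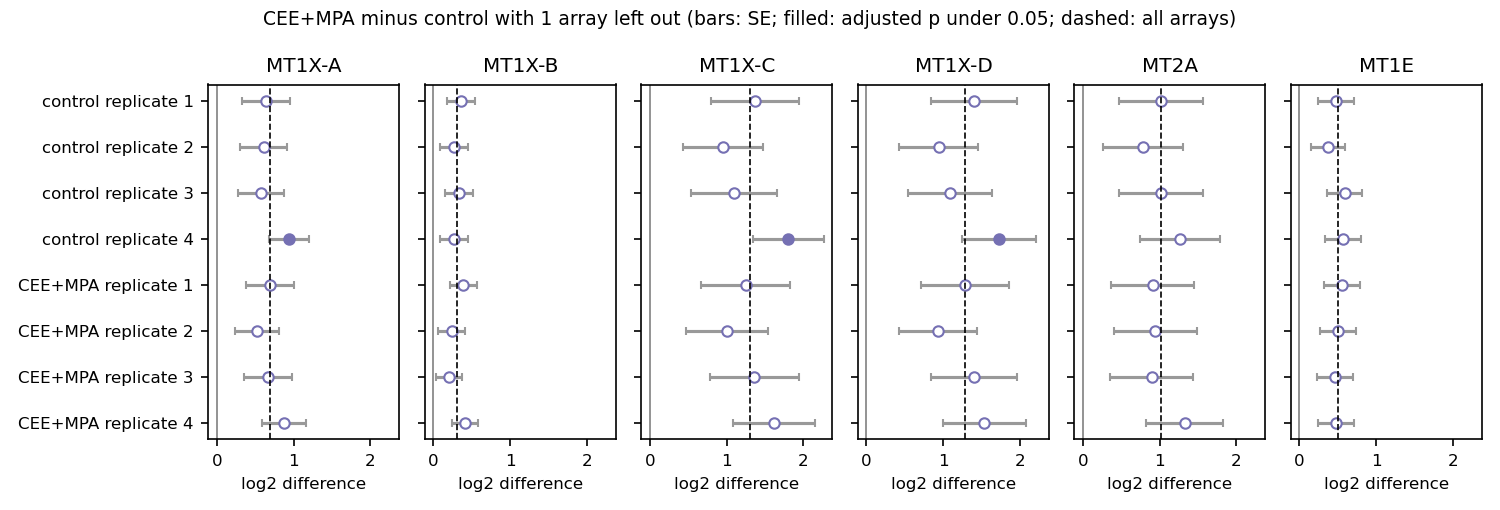
Log2 difference of CEE+MPA minus control with 1 array left out at a time, with SE bars, filled points where the limma adjusted p was under 0.05 and a dashed line at the value from all arrays. The filled points are those of MT1X-A, MT1X-C and MT1X-D without control replicate 4.

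The spike-in sets gave unequal estimates with 1 direction. Within the low set of the second split, which held 2 control and 2 CEE+MPA arrays, the log2 difference of CEE+MPA from control was 0.35 for MT2A, 0.22 for MT1E, 0.21 for MT1X-A and 0.50 for MT1X-C. Within the high set, with 2 arrays of each, it was 1.69 for MT2A, 0.78 for MT1E, 1.17 for MT1X-A and 2.11 for MT1X-C. With the set as a block the values were those of all arrays, since the groups are balanced over the sets, and the limma adjusted p lay between 0.135 and 0.222. Within the low set of the largest gap the difference was 0.48 for MT2A and 0.33 for MT1E, and within its high set, with 1 control and 2 CEE+MPA arrays, 2.04 and 0.93. Whether the sets differ in the response was not tested. Quantile normalization lowered the MT1E difference to 0.22 and left that of MT1X-C at 1.27.

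CEE alone against control asks what the estrogens change. Mean MT2A signal was 14601 ± 4055 (SD, n = 4) with CEE, and mean MT1E signal was 15728 ± 504. The limma log2 difference was 0.76 ± 0.49 for MT2A (95% interval -0.28 to 1.80; adjusted p 0.552) and 0.40 ± 0.21 for MT1E (-0.05 to 0.85; adjusted p 0.460). All MT1E signals with CEE were above all controls, which held for 4.21% of probe sets, and the CEE signals had an SD of 504 against 2375 in controls.

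The MT1X differences from control with CEE were 0.29 (MT1X-A), 0.11 (MT1X-B), 0.55 (MT1X-C) and 0.63 (MT1X-D). No metallothionein probe set passed in limma, and none had an unadjusted p under 0.05. Of all probe sets 0.0732% passed and 12.5% had an unadjusted p under 0.05. All 6 estimates were above 0, as were 50.6% of all, and their median was 0.47. They are not 6 separate estimates, since MT1X-A, MT1X-C and MT1X-D rose and fell together (r of 0.93 to 0.98). The MT1X-C difference was 0.19 without control replicate 2, 0.20 without CEE replicate 4 and 1.05 without control replicate 4, and that of MT1X-A ran from 0.11 (without CEE replicate 4) to 0.54 (without control replicate 4).

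The direction for MT1X did not hold within both spike-in sets. In the low set of the second split, with 2 CEE and 2 control arrays, the CEE difference was -0.14 for MT1X-A, -0.30 for MT1X-C and -0.17 for MT1X-D, and in the high set 0.72, 1.39 and 1.44. For MT2A it was 0.15 in the low and 1.37 in the high set, and for MT1E 0.15 and 0.64. At the largest gap MT1X-B, MT1X-C and MT1X-D were also below 0 in the low set (-0.02, -0.15 and -0.05). In its high set, which held 1 CEE and 1 control array, all 6 were above 0.

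CEE+MPA against CEE asks what the progestin adds to the same estrogen dose. The 6 metallothionein estimates were all above 0, from 0.10 for MT1E to 0.76 for MT1X-C, with a median of 0.33. None passed and none had an unadjusted p under 0.05 in limma, with adjusted p values from 0.759 to 0.939. For MT2A the difference was 0.26 ± 0.49 (SE), and its 95% interval ran from -0.78 to 1.30. Leaving out 1 array moved it between 0.03 (without CEE replicate 2) and 0.57 (without CEE+MPA replicate 4). Of all probe sets 0.0209% passed and 7.72% had an unadjusted p under 0.05. This comparison shares the CEE+MPA arrays with that against control.

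Tibolone against control gave estimates of either sign. Mean MT2A signal was 8384 ± 6621 (SD, n = 4) and mean MT1E signal 12483 ± 4253 with tibolone, and the control means were 8871 and 12104. The limma log2 difference was -0.35 ± 0.49 for MT2A (95% interval -1.39 to 0.69) and 0.00 ± 0.21 for MT1E (-0.45 to 0.45). The MT1X estimates ran from -0.02 (MT1X-B) to 0.69 (MT1X-D). The MT2A difference turned to 0.16 without tibolone replicate 3, to 0.44 without the 4 arrays of high skeletal muscle signal and to 0.02 within the high spike-in set of the second split. It was -0.83 without tibolone replicate 4, -0.59 without control replicate 2 and -0.10 without control replicate 4, and that of MT1E lay between -0.16 and 0.21 over the omissions of 1 array. None of the 6 passed or had an unadjusted p under 0.05, and of all probe sets 0.0244% passed and 5.41% had an unadjusted p under 0.05. The tibolone group spanned a 7.88-fold range of MT2A signal, so a similar level in both groups is not shown.

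Tibolone against CEE+MPA sets the 2 treatments with progestogenic activity side by side. The limma log2 difference of MT2A was -1.37 ± 0.49 (95% interval -2.41 to -0.33; adjusted p 0.101), and that of MT1E was -0.50 ± 0.21 (-0.95 to -0.06; adjusted p 0.152). The MT1X estimates were -0.54 (MT1X-A), -0.33 (MT1X-B), -0.80 (MT1X-C) and -0.60 (MT1X-D). None of the 6 passed in limma, and MT2A and MT1E had an unadjusted p under 0.05. Of all probe sets 6.34% passed, 1086 higher and 734 lower with tibolone, and 25.1% had an unadjusted p under 0.05. These 1820 calls moved with single arrays, to 209 without tibolone replicate 2, 295 without tibolone replicate 3 and 3333 without tibolone replicate 4. Without CEE+MPA replicates 1 to 4 in turn there were 723, 841, 413 and 1040. All 6 metallothionein estimates were below 0, whereas 54.3% of all probe sets were above 0. The 6 are not separate estimates, since MT1X-A, MT1X-C and MT1X-D correlated with each other at r of 0.93 to 0.98. MT2A and MT1E correlated at 0.84. This comparison also shares the CEE+MPA arrays with that of CEE+MPA against control.

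Again 1 array decided a call. Without tibolone replicate 4, whose MT2A signal of 17775 was far above the other 3, MT2A was lower with tibolone by a log2 difference of -1.85 (limma adjusted p 0.0161), and 4.94% of all probe sets passed as lower. The other 5 metallothionein probe sets did not pass there. Leaving out the 4 arrays with high skeletal muscle signal gave smaller differences for MT2A (-0.46, limma adjusted p 0.802) and MT1E (-0.13, adjusted p 0.862). Those of MT1X-B (-0.24) and MT1X-C (-0.63) were also smaller, while those of MT1X-A (-0.57) and MT1X-D (-0.65) were not. The tibolone replicates with the lowest MT2A and MT1E, 2 and 3, are those with high skeletal muscle markers. The remaining arrays with high muscle markers, control replicate 1 and CEE+MPA replicate 1, had MT2A at 8248 and 21162. The other arrays of their groups ran from 5039 to 13940 and from 8874 to 21854. MT1E in control replicate 1 and CEE+MPA replicate 1 was at 11214 and 15173, the latter the lowest of its group. Over the 16 arrays r with the muscle mean was -0.41 for MT2A (adjusted permutation p 0.275) and -0.56 for MT1E (0.0916). The part of muscle in these values was not tested, and with it as a covariate the differences were -1.25 for MT2A and -0.42 for MT1E. Within the high spike-in set of the second split, which held all tibolone and 2 CEE+MPA arrays, they were -1.67 and -0.55.

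Tibolone against CEE gave 5 estimates below 0 and 1 above. MT2A differed by -1.11 ± 0.49 (95% interval -2.15 to -0.07; limma adjusted p 0.391) and had the only unadjusted p under 0.05 of the 6. Without tibolone replicate 3 it differed by -0.60. MT1E differed by -0.40 ± 0.21 (-0.85 to 0.05), and the MT1X estimates lay between -0.14 and 0.06. That of MT1X-C turned from -0.04 to 0.31 without CEE replicate 4. Of all probe sets 0.00697% passed and 11.9% had an unadjusted p under 0.05.

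In all 6 probe sets the mean was highest with CEE+MPA, on the linear and the log2 scale. CEE was second, except that on the log2 scale tibolone was above CEE for MT1X-D (10.32 against 10.27). Tibolone was lowest for MT2A and MT1X-B, and control for MT1X-A, MT1X-C and MT1X-D. For MT1E control was lowest by the linear mean, while the log2 means of control and tibolone were both 13.54. No neighbours in these orders passed the limma test of their difference. The limma F test of any difference among the 4 groups passed for none of the 6 metallothionein probe sets, with adjusted p values from 0.224 for MT2A to 0.465 for MT1X-B, and for 3.02% of all. The unadjusted p of this test was 0.0442 for MT2A and above 0.05 for the other 5. Without tibolone replicate 4, 1 of the 6 passed it, and 7.4% of all did. Leaving out 1 array moved the count over all probe sets from 867 to between 182 (without CEE+MPA replicate 3) and 2123 (without tibolone replicate 4).

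Across the 16 arrays the MT1X probe sets did not all follow each other. Pearson's r was 0.95 between MT1X-A and MT1X-C (Spearman's rho 0.96), 0.93 between MT1X-A and MT1X-D (0.96) and 0.98 between MT1X-C and MT1X-D (0.99). Each had the smallest permutation p that the draws allow, 1e-05, or 5e-05 adjusted over the 15 pairs. MT1X-B correlated with these 3 at r of 0.52, 0.50 and 0.45 (rho 0.47, 0.45 and 0.36), with adjusted permutation p values of 0.0616, 0.0653 and 0.0916. Without CEE+MPA replicates 2 and 3, the farthest from its median, r between MT1X-B and MT1X-C was 0.28.

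MT2A and MT1E moved together, with r of 0.84 and rho of 0.77 (permutation p of 9e-05 and 0.000338 after adjustment for r). After removal of group means r was 0.74, and without control replicate 2 and tibolone replicate 3 it was 0.61. The relation was not seen in both spike-in sets: r was 0.93 over the 10 arrays of the high set and -0.12 over the 6 of the low set. MT1X-A and MT2A had r of 0.69 (rho 0.76, adjusted permutation p 0.00687), with 0.84 in the low set and 0.72 in the high set. MT1X-A and MT1E had r of 0.44 (adjusted permutation p 0.0958), so MT1X-A tracked MT2A more than it tracked MT1E in these values, a difference that was not tested. MT1X-B did not share this, with r of 0.61 with MT2A (rho 0.66) and 0.59 with MT1E (rho 0.67).

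**Figure D4:**
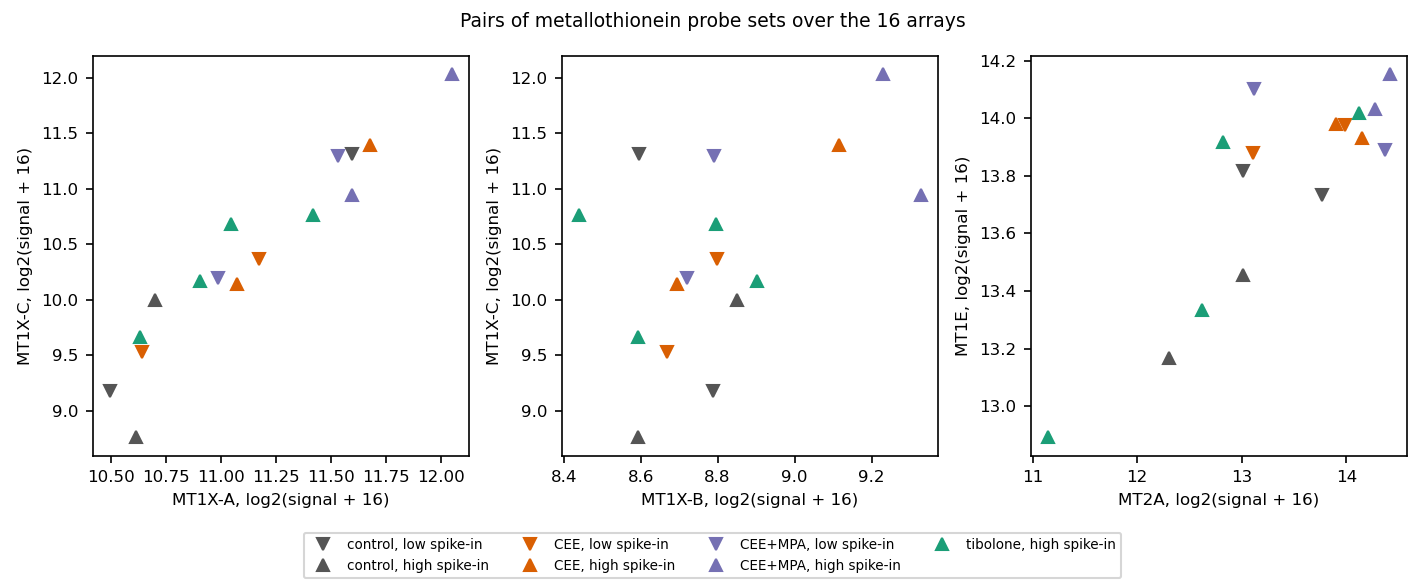
Log2(signal + 16) of pairs of metallothionein probe sets on the 16 arrays, coloured by group, with triangles pointing down for the low and up for the high spike-in set of the second split. MT1X-A and MT1X-C lie along 1 line (r = 0.95), MT1X-B and MT1X-C scatter (r = 0.50), and MT2A and MT1E rise together in the high set (r = 0.93) but not in the low set (r = -0.12).

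The other metallothioneins on the array gave no calls either. Of 9 further family members listed, MT3 and MT4 had a probe set of that single symbol, and both were tested. MT3, known from the brain, had signals from 64.3 to 267 and did not pass in any comparison. MT4, known from stratified epithelium, had signals from 23.1 to 182 and exceeded 60.2 on 4 arrays only. With CEE it was at 33.6 ± 3.63 (SD, n = 4) and with tibolone at 26.2 ± 3.58, so those 4 were control or CEE+MPA arrays. In limma both had an unadjusted p under 0.05 with CEE against control, as did 14.2% of all genes. MT3 was at 0.57 ± 0.24 (log2 difference, SE) and MT4 at -0.84 ± 0.34, which are opposite in sign. MT4 also had one with tibolone against control, at -1.07 ± 0.34 (limma adjusted p 0.793), as did 4.83% of all genes. In the other 4 comparisons neither gene had one. Because MT4 passed the filter only through control and CEE+MPA arrays, its unadjusted p values against control are no support for a difference.

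Genes that sense and move zinc were examined from a list of 25, of which 13 were tested. By the probe set with the highest mean signal, none passed in any comparison in limma. With an unadjusted p under 0.05 there were 3 for CEE+MPA against control and 7 for tibolone against CEE+MPA, and in the latter 3 were higher and 4 lower. The share of all genes at that unadjusted level was 28.3% and 28%, and 7.69% and 7.35% passed after adjustment. There were 0 zinc genes at an unadjusted p under 0.05 for CEE against control (14.2% of all genes) and for CEE+MPA against CEE (7.58%). There was 1 for tibolone against control (4.83% of all genes), and there were 3 for tibolone against CEE (13%). The median log2 difference of the list was 0.12 for CEE+MPA against control and -0.08 for tibolone against CEE+MPA, against 0.01 and 0.01 over all genes. SLC30A1, the zinc exporter that MTF1 controls, has no probe set of that single symbol here.

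MTF1 itself, the activator of the metallothionein genes, had estimates below 0 with CEE+MPA. By its brighter probe set, MmugDNA.37362.1.S1_at, the signal was 201 ± 35.7 (SD, n = 4) with CEE+MPA and 297 ± 31.4 in controls, a log2 difference of -0.54 ± 0.19 (SE; limma adjusted p 0.0966). A second probe set, MmuSTS.318.1.S1_at, singled out after its values were seen, passed: MTF1 signal was 112 ± 34.2 against 185 ± 26.4, a difference of -0.67 ± 0.17 (limma adjusted p 0.0293). It was also higher with tibolone than with CEE+MPA, at 203 ± 29.0, by 0.79 ± 0.17 (adjusted p 0.0199). The first of these calls was lost without any 1 of 6 arrays, control replicates 1, 2 and 3 and CEE+MPA replicates 1, 3 and 4, with adjusted p up to 0.0879. The second was lost without CEE+MPA replicate 3 or tibolone replicate 2 or 3, with adjusted p up to 0.0601.

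Fainter probe sets of 2 zinc transporters also passed between tibolone and CEE+MPA, and were likewise singled out after their values were seen. SLC39A8, which carries zinc and manganese into cells, had a signal of 130 ± 46.0 (SD, n = 4) with tibolone and 263 ± 56.1 with CEE+MPA by probe set MmugDNA.35785.1.S1_at, a log2 difference of -0.96 ± 0.24 (SE; limma adjusted p 0.0332). SLC30A2, which loads zinc into vesicles and milk, had 143 ± 72.4 against 275 ± 73.3 by probe set MmugDNA.8830.1.S1_at, a difference of -0.93 ± 0.25 (limma adjusted p 0.0423). Its brighter probe set, MmuSTS.1084.1.S1_at, gave -1.11 ± 0.33 (adjusted p 0.0555). Each call was lost without any 1 of 5 of the 8 arrays compared. Tibolone replicates 2 and 3 and CEE+MPA replicates 3 and 4 were among them for both genes, with CEE+MPA replicate 2 for SLC39A8 and CEE+MPA replicate 1 for SLC30A2, and the adjusted p rose to 0.106 and 0.123.

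Lists of other genes that metals, oxidants and steroids act on held few calls. Of copper handling genes 8 of 13 were tested and of iron handling genes 6 of 11, and none passed in any comparison in limma. Of oxidative stress and glutathione genes 12 of 22 were tested, and of glucocorticoid and progestin responsive genes 14 of 19. In the first of these lists 1 gene passed for CEE+MPA against control and 2 for tibolone against CEE+MPA, and in the second list 0 and 1. In the other 4 comparisons no gene of these lists passed. Over all genes the shares that passed there were 0.0574% for CEE against control, 0.00957% for tibolone against control, 0.0287% for CEE+MPA against CEE and 0% for tibolone against CEE.

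At an unadjusted p under 0.05 in limma, CEE+MPA against control gave 2 copper, 0 iron, 4 oxidative stress and 2 steroid responsive genes, where 28.3% of all genes had one. Tibolone against CEE+MPA gave 2, 1, 2 and 6 in the same order of lists, where 28% of all genes did. For CEE against control there were 2, 0, 2 and 3 (14.2% of all genes), and for tibolone against control 1, 1, 0 and 1 (4.83%). CEE+MPA against CEE gave 2 steroid responsive genes and none of the other 3 lists (7.58%), and tibolone against CEE gave 1, 2, 2 and 2 (13%).

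The genes that passed were named after their values were seen. GCLC, the catalytic subunit of the enzyme that limits glutathione synthesis, had a signal of 813 ± 112 (SD, n = 4) with CEE+MPA and 1440 ± 193 in controls, and fell by a log2 difference of -0.81 ± 0.18 (SE; limma adjusted p 0.0184). With tibolone GCLC was at 1480 ± 407, higher than with CEE+MPA by 0.82 ± 0.18 (limma adjusted p 0.0223). CAT, which breaks down hydrogen peroxide, was lower with tibolone than with CEE+MPA by -1.13 ± 0.31 (156 ± 85.2 against 327 ± 32.9; limma adjusted p 0.0418). ZBTB16, a zinc finger gene induced by progestins and glucocorticoids, was higher with tibolone, at 1178 ± 533 against 477 ± 97.2, by 1.17 ± 0.34 (adjusted p 0.0499).

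These calls also rested on single arrays. The GCLC call against control was lost without CEE+MPA replicate 2 or 3 or without control replicate 2 (limma adjusted p up to 0.0734). That between tibolone and CEE+MPA was lost without CEE+MPA replicate 3 or tibolone replicate 2 or 3 (up to 0.0728). Those of CAT and ZBTB16 held only without tibolone replicate 4, and were lost without any 1 of the other 7 arrays (adjusted p up to 0.125 and 0.153).

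Cell type markers moved with the treatment in the same comparisons, and in bulk tissue fewer cells of a type and less RNA per cell cannot be told apart. With CEE+MPA against control, 7 of 7 tested smooth muscle markers passed as lower, 5 of 10 fibroblast markers, 3 of 6 basal and myoepithelial markers, 2 of 7 adipocyte markers, 2 of 8 endothelial markers and 1 of 9 myeloid markers. Of 11 luminal markers 1 passed as higher. At an unadjusted p under 0.05 in limma there were 5 luminal markers, of which only that 1 was higher. The median log2 difference of the luminal list was -0.04. At the same level there were 5 basal, 6 fibroblast and 8 myeloid markers, of which 1, 1 and 2 were higher. Over all genes 7.69% passed, 518 of 10452 as lower and 286 as higher. With tibolone against CEE+MPA, 6 of 7 smooth muscle markers, 4 fibroblast, 3 basal, 2 adipocyte, 1 endothelial and 1 luminal marker passed as higher, where 7.35% of all genes passed, 416 as higher and 352 as lower. Of the luminal markers 4 had an unadjusted p under 0.05 in limma there, 2 of them higher. No tested marker of T and NK cells (3), B and plasma cells (4), skeletal muscle (9), skin keratinocytes (3) or erythroid cells (2) passed in either comparison in limma. At an unadjusted p under 0.05 there was 1 T and NK cell marker and 1 skeletal muscle marker for CEE+MPA against control, and 0 of these lists for tibolone against CEE+MPA, against 28.3% and 28% of all genes.

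The summed levels of these lists show the size of the shift. The smooth muscle mean per array was 0.11 to 0.63 in controls and -1.07 to -0.42 with CEE+MPA, and the fibroblast mean was 0.23 to 0.69 and -0.72 to -0.14. The basal and myoepithelial mean was 0.10 to 0.38 in controls and -1.05 to -0.28 with CEE+MPA. In these 3 lists the ranges did not overlap. Nor did they for the endothelial mean, at 0.05 to 0.58 in controls and -0.51 to -0.21 with CEE+MPA. The myeloid mean was also apart, at 0.15 to 0.58 and -0.23 to 0.11. The adipocyte mean overlapped, at -0.21 to 0.84 in controls and -1.17 to -0.08 with CEE+MPA, and so did the luminal mean, at -0.10 to 0.16 and -0.17 to -0.05.

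Metallothionein signal ran against several of these marker means across the 16 arrays, in a family of 84 correlations. MT1E had r of -0.82 with the endothelial mean (rho -0.74; adjusted permutation p 0.00336 and 0.0148). After removal of group means it was -0.73, without control replicate 2 and CEE+MPA replicate 2 it was -0.79, and it was -0.35 in the low and -0.86 in the high spike-in set. MT2A had r of -0.74 with the adipocyte mean (rho -0.81; adjusted permutation p 0.0288 and 0.00437).

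The MT2A relation was 0.19 in the low spike-in set and -0.83 in the high set, -0.63 after removal of group means, and -0.62 without CEE+MPA replicate 2 and tibolone replicate 3. MT1X-A had r of -0.72 with the fibroblast mean (rho -0.72; adjusted permutation p 0.0372 and 0.0208), with -0.35 in the low and -0.87 in the high set. For MT1X-A r was -0.61 after removal of group means and -0.53 without control replicate 3 and CEE+MPA replicate 2. These pairs were singled out after the values were seen, as those with r farthest from 0 for each probe set. In these 3 pairs, arrays with more stromal or fat signal had less metallothionein signal, and r was farther from 0 in the high set. With the smooth muscle mean rho was -0.82 for MT2A and -0.84 for MT1E (adjusted permutation p 0.00437 for both). Pearson's r there was -0.61 and -0.68 (adjusted permutation p 0.0625 and 0.0425). With the luminal mean no probe set had a correlation past 0.05 after adjustment. With the basal mean MT2A and MT1E passed by rank (rho -0.69 and -0.67, adjusted permutation p 0.0227 and 0.0327) but not by Pearson's r (-0.38 and -0.52). After removal of group means r with the basal mean was 0.16 for MT2A and -0.16 for MT1E, so the relation was not seen within groups. The part of cell composition in the metallothionein values was not tested. With the luminal mean as a covariate the CEE+MPA differences from control were 0.99 for MT2A and 0.52 for MT1E. As r with that mean was only -0.17 for MT2A and -0.07 for MT1E, this adjustment could change little. The fibroblast, endothelial and smooth muscle means were not used as covariates.

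**Figure D5:**
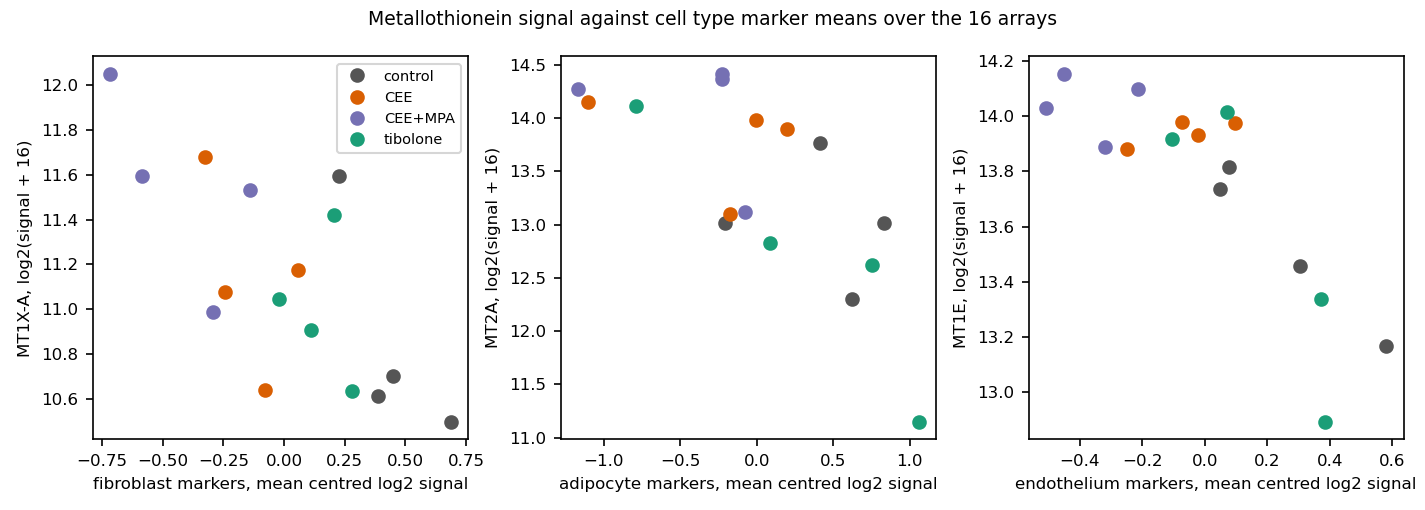
Log2(signal + 16) of MT1X-A, MT2A and MT1E against the mean centred log2 signal of fibroblast, adipocyte and endothelial markers on the 16 arrays, coloured by group. The points fall from upper left to lower right, with r of -0.72, -0.74 and -0.82, and the CEE+MPA arrays lie toward the left.

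The genes whose pattern over the 16 arrays was most like each metallothionein were listed from 10452 genes, as a description. For MT1X-A they were ACY3 (r = 0.83), RCL1 (0.82), LOC694177 (0.79), PIR (0.79), KCMF1 (0.79) and CGREF1 (0.78). For MT2A they were SDSL (0.95), PGAP2 (0.94), SFXN4 (0.93), SERINC5 (0.92), IPO5 (0.91) and TIMM9 (0.91). SDSL is related to the enzyme serine dehydratase, PGAP2 acts in the maturation of GPI-anchored proteins, and TIMM9 is a chaperone of mitochondrial import. After removal of group means r with MT2A was 0.92 for SDSL and 0.94 for PGAP2.

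For MT1E the most alike genes were RPL12 (r = 0.96), TMSB4X (0.96), RPL30 (0.95), ELF5 (0.95), RPS9 (0.95) and LOC702801 (0.95). RPL12, RPL30 and RPS9 encode ribosomal proteins, TMSB4X encodes an actin-binding peptide, and ELF5 encodes a transcription factor of mammary alveolar cells. After removal of group means r with MT1E was 0.96 for RPL12 and 0.95 for ELF5. As the genes were picked by r over these same arrays, this is no separate support. The highest values for MT1X-A were lower than those for MT2A and MT1E. All these correlations share the same 16 arrays and the same scaling.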

How the data were processed

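Total RNA of 16 mammary samples was hybridised to Affymetrix rhesus arrays, per the labels. The deposited values are linear intensity per probe set, which the authors had scaled to 1 trimmed mean (250.015 to 250.017 after trimming 2% at each end, as measured). The submitters' processing notes name GCOS and Affymetrix Expression Console, with no versions, and the signal algorithm is not given in the sources used here. Symbols came from the platform annotation, in which 24969 probe sets carried 1 symbol, 361 several and 27535 none.

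After removal of 99 array controls, the 28704 probe sets above 60.2 (the table median) on at least 4 arrays were tested. Log2(signal + 16) was fitted with limma 3.58.1 in R 4.3.3, with 4 group means, 12 residual degrees of freedom and Benjamini-Hochberg adjustment over all tested probe sets at 0.05. Fold changes are on that scale, which understates low signals. For gene lists, each of 10452 genes was represented by its tested probe set of highest mean. Replicate numbers follow the order of deposit, and p-values measure the spread between 4 animals a group. Correlations used 100000 permutations in a two-sided test. The number of arrays limits the precision.

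Named were all probe sets of MT1X, MT2A and MT1E, MTF1 and SLC30A1, any called metallothionein or zinc gene, and the 6 genes most correlated with each member. The members and the 18 lists were chosen with earlier results of these data known. Alternatives were quantile normalization, median centring, offsets of 1 and 64, no filter and a filter at the 75th percentile, only the groups compared, array weights and a threshold of 0.10. Spike-in sets, the GAPDH 3 prime to 5 prime ratio, and skeletal muscle and luminal means were also tried, as was leaving out each array. The second spike-in split was added after the data were seen. The fit was tested on simulated data. Figures were drawn with matplotlib 3.10.9 in Python 3.11.15.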

Additional observations from a re-analysis of the deposited data

Results flagged for a closer look

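Of 24 sets of 4 arrays (6 metallothionein probe sets in 4 groups), 2 held an array far from its group by linear signal, and chance gives about 1 in 20 such sets. For MT1X-A, control replicate 4 had a signal of 3082 and the other controls 1429 to 1648, so that the gap to the nearest was 0.867 of the whole range, above Dixon's critical value of 0.829. For MT2A, CEE+MPA replicate 4 had a signal of 8874 and the other 3 animals 19815 to 21854, a gap of 0.843 of the range. On the log2 scale of the tests MT1X-A was at 11.60 in control replicate 4 and 10.50 to 10.70 in the other controls. That gap is below the critical value, so this flag depends on the scale.

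In the same CEE+MPA animal MT1E was at 17560, and the other animals of its group ran from 15173 to 18223. Without that animal the CEE+MPA differences from control kept their direction and none passed.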

How the results depend on the processing

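With all arrays, none of the 6 metallothionein probe sets passed in any comparison or in the F test, and this count changed only when 1 array was left out. The omissions gave 0 to 3 calls for CEE+MPA against control (3 without control replicate 4, all of MT1X). They gave 0 to 1 for tibolone against CEE+MPA and 0 to 1 for the F test (1 in each case without tibolone replicate 4). In the other 4 comparisons no alternative gave a call. Over the 36 estimates of 6 probe sets in 6 comparisons, 893 of 936 values under the alternatives kept their sign and 4 passed 0.05. All 6 estimates for CEE+MPA against control and for tibolone against CEE+MPA kept their sign throughout. These 2 comparisons share the CEE+MPA arrays. No paired analysis was possible because replicate numbers follow the order of deposit and no animal was in more than 1 group. With 4 arrays a group and a within-group SD near 0.8 on the log2 scale for MT2A, MT1X-C and MT1X-D, the intervals span more than 2 log2 units.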
